A study of Homo sapiens with 54 samples.

Results

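The genes described are 10 neuropeptide precursors of striatal projection neurons and interneurons (TAC1, PDYN, PENK, NPY, SST, CARTPT, CRH, CCK, PNOC and ADCYAP1), chosen by symbol from a table of 60676 genes per library. Each symbol matched 1 row in every library. Values are TPM (exon reads per exon base, scaled to the same sum in each library) and exon reads in 53 libraries of 18 conditions. The RNA came from hMSN-like cells, which are striatal-type neurons differentiated with activin A from H9, a line of human embryonic stem cells. All conditions therefore share 1 cell line, and each library holds the RNA of a whole mixed culture.

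The 18 conditions belong to 4 experiments. In the 1 mM and the 1 µM experiment, dopamine in ascorbic acid was given acutely or chronically. The acute dose was given on DIV45, and the chronic doses, repeated for 5 days, ended on DIV50. RNA was taken 1 h or 24 h later, and each of these 4 conditions was compared with the PBS cultures of its experiment. The 3 PBS libraries of an experiment served all 4 conditions, and their day in vitro is not given in the sources used here. In these comparisons, dopamine cannot be told apart from its ascorbic acid, or from age where the days differ. In the time course, 1 mM dopamine was given for 2, 3, 4 or 5 days and compared with an ascorbic acid vehicle. All samples were taken on DIV50, those with dopamine 1 h after the last dose. In the agonist experiment, 50 µM of the D1-like agonist SKF82958 or 50 µM of the D2-like agonist quinpirole was compared with water. Conditions held 3 libraries, except Day 5 with 2, as a further library was not analysed here. Nothing read here says that replicates came from separate differentiations, so p-values measure only the spread between these libraries, which may be technical. Which sequencing provider processed which library is likewise not given in the sources used here.

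Neuropeptides are made as large precursors, cut by proprotein convertases, trimmed and amidated, stored in dense-core vesicles and released on strong stimulation to act on G protein-coupled receptors. In the striatum, the direct-pathway medium spiny neurons (MSNs) make substance P from TAC1 and dynorphin from PDYN, while the indirect-pathway MSNs make enkephalin from PENK. A class of striatal interneurons derived from the medial ganglionic eminence makes somatostatin (SST) together with neuropeptide Y (NPY). CARTPT encodes the CART peptide, CRH corticotropin-releasing hormone, CCK cholecystokinin, PNOC nociceptin and ADCYAP1 the peptide PACAP, and several of these genes are textbook targets of cAMP and activity signaling.

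On GRCh38 the MSN precursors TAC1 (ENSG00000006128, chr7:97732084-97740472, plus strand), PDYN (ENSG00000101327, chr20:1978757-1994285, minus strand) and PENK (ENSG00000181195, chr8:56436674-56446671, minus strand) lie on separate chromosomes. The interneuron peptides SST (ENSG00000157005, chr3:187668912-187670394, minus strand) and NPY (ENSG00000122585, chr7:24284188-24291862, plus strand) have the shortest exon lengths of the group, 607 and 893 bases. The other genes are CARTPT (ENSG00000164326, chr5:71719275-71721048, plus strand), CRH (ENSG00000147571, chr8:66176376-66178464, minus strand), CCK (ENSG00000187094, chr3:42257825-42266185, minus strand), PNOC (ENSG00000168081, chr8:28316986-28343355, plus strand) and ADCYAP1 (ENSG00000141433, chr18:904871-912172, plus strand). PDYN, PENK, CCK, PNOC and ADCYAP1 overlap another annotated gene, and the strand used in counting is not given in the sources used here, so reads of these 5 genes cannot be told from those of their partners.

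Exon reads per library ranged from 5755919 to 27702963 in 52 libraries. Quinpirole replicate 1 stood apart, with 137051 exon reads and 96.7% of its gene reads in introns. It held 3 reads of PDYN and 2 of ADCYAP1, and no exon read of the other 8 genes, so the agonist results are given with and without it. Replicate 1 of 1 mM Acute 24 h also stood apart, with an EGR1 level of 696 TPM against 27.8 and 25.8 TPM in the other replicates, and the 1 mM results are given with and without it too. In all libraries together, the 10 genes drew between 77 exon reads (PNOC) and 3283 exon reads (ADCYAP1), and single libraries held at most 203 reads of any of them. Counts were thus low for every gene of the group. A count of 3 reads was taken as the floor, which in the 1 mM libraries was 0.982 to 1.66 TPM for SST with its short transcript and 0.169 to 0.285 TPM for PDYN.

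The cyclic AMP response element, the CRE, is the DNA motif through which CREB acts on several neuropeptide genes, so the 250 bases before annotated starts were searched for it (TGACGTCA, both strands). RefSeq promoter sequences on GRCh38.p14 matched 7 of the 10 genes, and PENK, CRH and PNOC were not searched. The full CRE was present in SST and CARTPT and not in the windows of TAC1, PDYN, NPY, CCK and ADCYAP1, and it was present in 1.65% of the 35116 promoters of the table. The half-site TGACG, which the full element contains, was also found in TAC1 and in the second annotated promoter of ADCYAP1, and it occurred in 21.2% of these promoters. The AP-1 site TGACTCA, present in 4.20% of promoters, had no match in the 7 genes searched. The upstream sequences of the 2 genes with a full CRE are shown with the CRE in capitals. The first promoter of ADCYAP1, the gene with the clearest response to dopamine, is shown beside them and has no CRE in this window. They are SST at chr3:187670395-187670644 on the minus strand, CARTPT at chr5:71719025-71719274 on the plus strand and ADCYAP1 at chr18:904621-904870 on the plus strand, each printed 5′ to 3′ up to the base before the start.
SST: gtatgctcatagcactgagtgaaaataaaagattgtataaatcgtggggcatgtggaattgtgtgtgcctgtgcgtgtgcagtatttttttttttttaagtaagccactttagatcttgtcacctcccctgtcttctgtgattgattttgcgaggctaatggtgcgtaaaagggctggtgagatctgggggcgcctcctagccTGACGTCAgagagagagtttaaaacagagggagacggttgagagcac
CARTPT: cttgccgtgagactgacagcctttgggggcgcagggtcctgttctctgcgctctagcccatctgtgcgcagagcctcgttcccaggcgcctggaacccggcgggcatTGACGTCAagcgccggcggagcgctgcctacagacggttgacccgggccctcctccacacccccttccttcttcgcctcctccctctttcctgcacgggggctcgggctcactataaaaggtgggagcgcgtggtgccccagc
ADCYAP1: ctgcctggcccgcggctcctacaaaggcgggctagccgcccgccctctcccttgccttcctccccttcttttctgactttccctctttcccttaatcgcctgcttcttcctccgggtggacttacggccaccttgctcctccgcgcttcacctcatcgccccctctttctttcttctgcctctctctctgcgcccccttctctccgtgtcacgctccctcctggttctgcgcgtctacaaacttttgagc
The CRE of SST began 47 bases before the start and that of CARTPT 143 bases before it. A match describes these letters and not the use of the site, and a window without a match says nothing about the factor.

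In untreated cultures, the first question was how much of each peptide gene hMSN-like cells express. SST had the highest TPM of the group in the PBS cultures of the 1 mM experiment, the ascorbic acid vehicle and water, and CRH in the PBS cultures of the 1 µM experiment, though the ranges of the leading 2 genes overlapped in water and in the latter. In PBS of the 1 mM experiment, SST was at 33.8, 59.6 and 61.6 TPM, and its mean made up 53.3% of the summed TPM of the 10 genes. No other gene of the group reached that range. TAC1 followed at 13.7, 10.9 and 11.8 TPM and NPY at 7.96, 11.4 and 16.8 TPM, and their ranges overlapped. CRH at 7.55 ± 1.86 TPM (SD, n = 3) overlapped NPY but lay above PENK at 4.59 ± 0.867 TPM, which overlapped ADCYAP1 at 3.88 ± 0.825 TPM. CARTPT was at 2.73 ± 0.529 TPM and lay below ADCYAP1 without overlap. CCK at 1.39 ± 0.901 TPM and PDYN at 0.787 ± 0.441 TPM overlapped, and PNOC was lowest at 0.124 ± 0.125 TPM. Of the MSN precursors, the direct-pathway pair was thus unequal, with TAC1 well above PDYN in every PBS library of this experiment.

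The level of 5 of the 8 genes that could be tested differed across the 4 control sets in an F test (edgeR's quasi-likelihood test on exon reads with Benjamini-Hochberg adjustment over all genes tested). The background was high, since 62.6% of 16944 genes were called in the same test. SST differed most in level. It was at 3.06, 2.74 and 3.32 TPM in PBS of the 1 µM experiment, at 27.6, 25.6 and 18.9 TPM in the vehicle and at 32.0, 12.3 and 21.8 TPM in water (adjusted p = 9.91e-05). All 3 libraries of the 1 µM control were below every library of the other control sets, each with 5 SST reads. ADCYAP1 was lowest in the same set at 1.5 ± 0.8 TPM and highest in water at 7.53 ± 0.974 TPM (adjusted p = 0.000157). TAC1 was at 4.06 ± 1.32 TPM in PBS of the 1 µM experiment, 7.23 ± 1.09 TPM in the vehicle and 14.2 ± 1.76 TPM in water (adjusted p = 0.00186). PENK (adjusted p = 0.0187) and NPY (adjusted p = 0.0299) were also called, while CRH, CARTPT and CCK were not (adjusted p = 0.100, 0.183 and 0.307). The call of NPY was lost when 1 of 5 single libraries of the 12 was left out (adjusted p up to 0.132), and that of PENK with 2 of them left out in turn (up to 0.0722). PDYN and PNOC were below the filter on low counts.

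**Figure D1:**
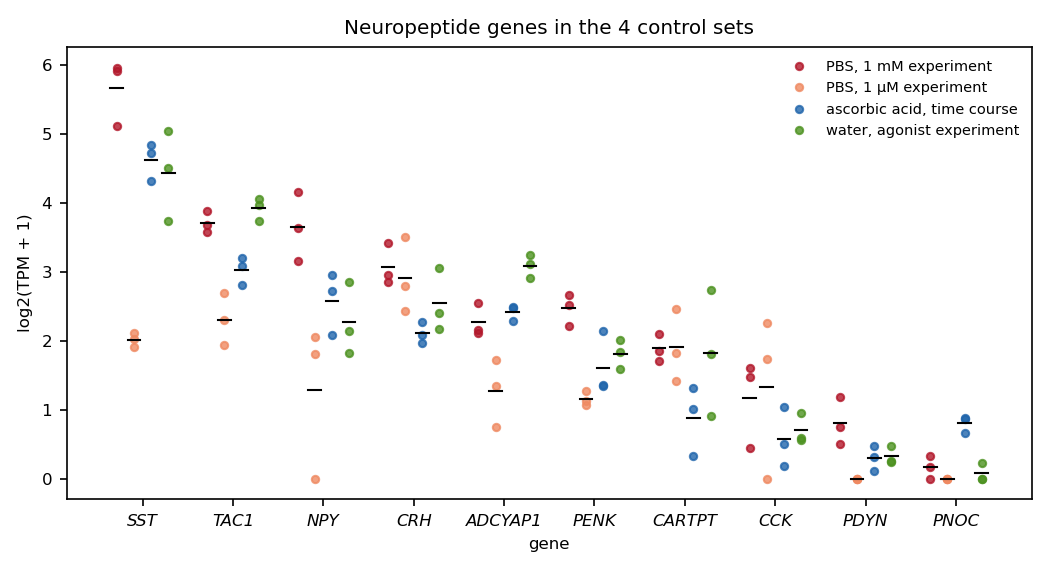
Level of the 10 neuropeptide genes in the 4 control sets, with the genes on the x axis and log2(TPM + 1) on the y axis. Each point is 1 library, the black lines are means of 3 libraries, and colors mark the control sets. SST sits lowest in PBS of the 1 µM experiment, at 2.74 to 3.32 TPM, and at 12.3 to 61.6 TPM in the other 3 sets.

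Levels of several genes also differed between experiments over all conditions. Over the 15 libraries of the 1 mM experiment, SST ranged from 14.9 to 61.6 TPM with a median of 33.4 TPM, and over the 15 libraries of the 1 µM experiment from 0 to 5.77 TPM with a median of 3.17 TPM. TAC1 ranged from 9.07 to 19.8 TPM in the former and from 2.25 to 5.44 TPM in the latter. The ranges of these genes did not overlap between the experiments. CRH and CCK did overlap, with CRH at 2.08 to 13.6 TPM against 1.35 to 10.4 TPM. The gap was also present in the PBS cultures, which received no dopamine, with mean TPM of 51.7 against 3.04 for SST and 12.1 against 4.06 for TAC1. Differentiation and sequencing run cannot be told apart here. In RNA of whole cultures, fewer cells of a type and less RNA per cell cannot be told apart either.

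Markers of the cell types that could make these peptides gave a mixed picture in the 12 control libraries. MSN markers were present, with PPP1R1B, which encodes DARPP32, at 7.70 to 44.7 TPM, BCL11B at 27.4 to 83.9 TPM and DRD2 at 2.44 to 9.43 TPM. The transcription factors that define interneurons of the medial ganglionic eminence were at or near 0, as NKX2-1 reached at most 0.921 TPM, LHX6 at most 0.303 TPM and LHX8 at most 0.341 TPM. Other markers on the list of 15 were present, with ERBB4 at 3.91 to 12.7 TPM, and 10 of the 15 had a mean of 1 TPM or more in each control set. The summed TPM of all 15, SST and NPY included, was 111 to 172 in PBS of the 1 µM experiment and 243 to 260 in PBS of the 1 mM experiment. Markers of excitatory cortical neurons were abundant, with NEUROD6 at 541 to 1086 TPM and TBR1 at 126 to 182 TPM. Which cells carried each peptide was not tested.

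Beyond the 10 genes, other precursors were expressed at higher levels. Those named here by level were chosen after their values were seen. Of 43 other neuropeptide genes in a list, NTS (neurotensin) was at 33.5 to 178 TPM in the 12 control libraries, PMCH (melanin-concentrating hormone) at 23.5 to 675 TPM and NMU (neuromedin U) at 11.4 to 54.9 TPM. PMCH, like SST, had its highest mean in PBS of the 1 mM experiment (498 TPM) and its lowest in PBS of the 1 µM experiment (26.7 TPM). The machinery of peptide secretion was abundant. CPE, the carboxypeptidase that trims precursors, was at 376 to 832 TPM, the amidating enzyme PAM at 60.9 to 108 TPM, and the granins SCG2 and CHGA at 183 to 656 TPM and 39.3 to 425 TPM. Among receptors of the members' peptides, the one with the highest mean TPM per family was SSTR2 for somatostatin (34.5 to 86.2 TPM), ADCYAP1R1 for PACAP (20.4 to 46.5 TPM), OPRL1 for opioids and nociceptin (4.94 to 15.6 TPM), CCKBR for cholecystokinin (5.30 to 23.1 TPM), NPY1R for neuropeptide Y (4.68 to 7.29 TPM), CRHR1 for CRH (1.62 to 7.85 TPM) and TACR3 for tachykinins (1.09 to 10.3 TPM).

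**Figure D2:**
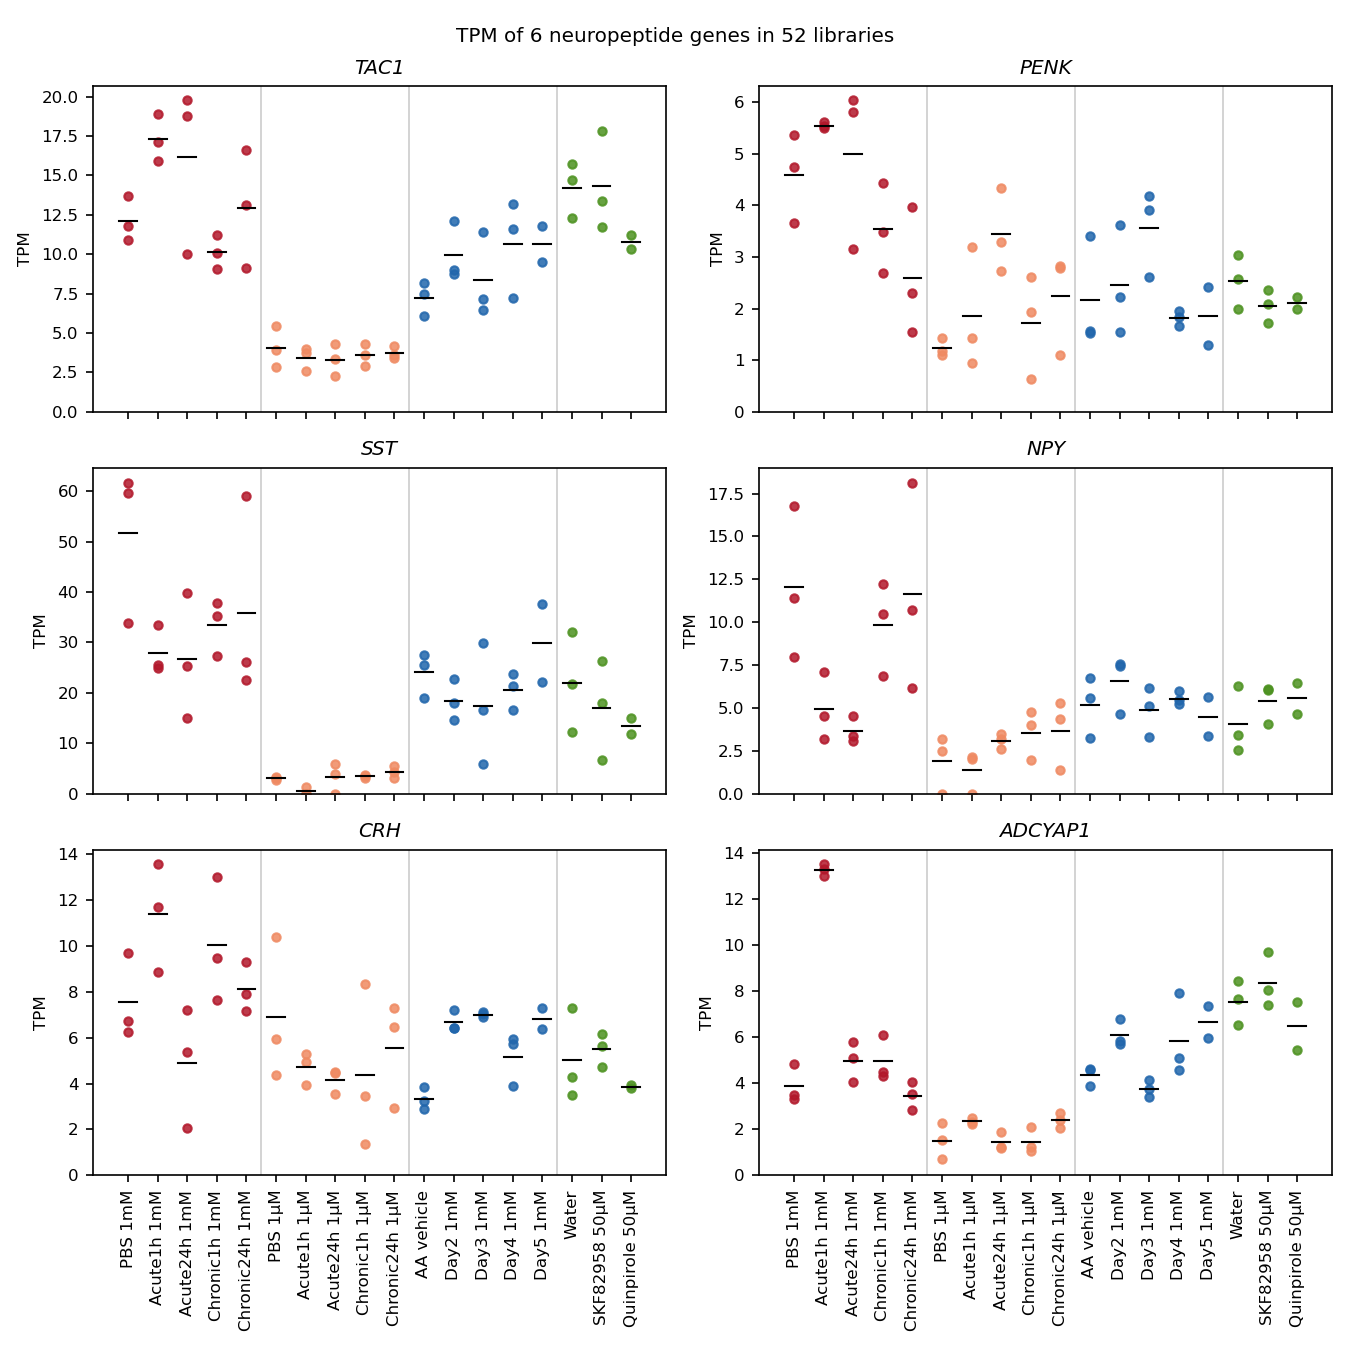
TPM of TAC1, PENK, SST, NPY, CRH and ADCYAP1 in 52 libraries, with the 18 conditions on the x axis and TPM on the y axis, each panel on its own scale from 0. Each point is 1 library, black lines are means and quinpirole replicate 1 is left out. ADCYAP1 at 1 mM Acute 1 h, between 13.0 and 13.5 TPM, lies above all other libraries shown.

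The peptide genes were first examined 1 h after an acute 1 mM dose of dopamine. Dopamine came in ascorbic acid and the control was PBS, so dopamine and ascorbic acid cannot be told apart here. ADCYAP1 rose, and no other gene of the group was called. Its level was 13.3, 13.0 and 13.5 TPM (203, 167 and 185 exon reads) against 3.33, 4.83 and 3.47 TPM (49, 77 and 54 reads) in PBS. Every treated library was far above every control library. The log2(fold change) was 1.83 ± 0.22 (SE) with an adjusted p of 0.000261 (edgeR's quasi-likelihood test). Among all 17804 genes tested, 16.0% were called in this comparison and 8.04% were called higher. ADCYAP1 also met the study's DEG rule (adjusted p under 0.05, a change of 1 or more on the log2 scale in either direction, and a mean of 1 TPM or more in either group), which 4.10% of genes met. It was called in all 15 fits that left out 1 library, with log2(fold changes) of 1.72 to 2.00, and in all 8 other alternatives.

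The other 8 genes tested at Acute 1 h did not pass the threshold. TAC1 was at 15.9, 18.9 and 17.1 TPM, above all its PBS libraries, with a log2(fold change) of 0.57 ± 0.27 and an adjusted p of 0.173. PENK was at 5.53, 5.61 and 5.49 TPM, also just above its PBS range, with 0.34 ± 0.33 and an adjusted p of 0.533. Both interneuron peptides had negative values. NPY was at 4.54, 7.10 and 3.16 TPM, below its PBS range, with a log2(fold change) of -1.23 ± 0.43 and an adjusted p of 0.0678. SST was at 33.4, 24.9 and 25.5 TPM with -0.82 ± 0.41 and an adjusted p of 0.188. CRH, at 8.86, 11.7 and 13.6 TPM, overlapped its PBS range of 6.23 to 9.68 TPM, with 0.65 ± 0.37 (adjusted p = 0.248). The low genes were not called either. CARTPT had 7, 1 and 1 reads against 11, 15 and 10 in PBS (adjusted p = 0.155), PDYN 5, 5 and 6 reads against 9, 6 and 18 (adjusted p = 0.495), and CCK 10, 3 and 6 reads against 16, 15 and 3 (adjusted p = 0.474). In 6 of the 10 genes the treated and PBS libraries did not overlap in TPM, but this was also true of 53.5% of all genes tested. PNOC had at most 2 reads in any library of this comparison and was not tested.

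Values for other parts of the culture moved at the same time. The share of gene reads in introns was 12.3% to 13.2% at Acute 1 h and 19.5% to 21.8% in PBS. The summed TPM of 10 markers of excitatory neurons was 762 to 931 against 1729 to 1914, with 3 of 9 tested markers lower and none higher, and that of 10 mesenchymal markers was 326 to 427 against 120 to 153. The 11 general neuronal markers summed to 4668 to 5159 TPM against 5003 to 5795 TPM. Their part in the values of the peptide genes was not tested. Activity-induced genes rose in the same libraries. Of 11 tested, 9 were called higher, among them FOSB, an AP-1 subunit, with a log2(fold change) of 6.77 ± 0.42 (adjusted p = 2.41e-06).

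At 24 h after the acute 1 mM dose, NPY was the gene of the group that was lower. It was at 4.51, 3.08 and 3.34 TPM (12, 13 and 15 reads) against 7.96, 11.4 and 16.8 TPM (27, 42 and 60 reads) in PBS, and the ranges did not overlap, which was true of 37.1% of all genes tested. The log2(fold change) was -1.86 ± 0.44 with an adjusted p of 0.0183, against a background of 15.5% of genes called and 7.09% called lower. NPY also met the DEG rule, as did 3.70% of genes. The call depended on single control libraries. Without PBS replicate 2 the adjusted p was 0.0571, and without PBS replicate 3 it was 0.0628. With only the 2 groups compared in the fit it was 0.0987. Without replicate 1 of Acute 24 h, the library that stood apart, the log2(fold change) was -1.95 ± 0.49 with an adjusted p of 0.0118.

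The intron share was 12.5% to 15.9% at Acute 24 h, against 19.5% to 21.8% in PBS. Excitatory markers summed to 837 to 1119 TPM against 1729 to 1914 TPM, and mesenchymal markers to 198 to 335 TPM against 120 to 153 TPM. The 11 general neuronal markers summed to 2591 to 4880 TPM against 5003 to 5795 TPM, without overlap. Their part in the lower NPY level was not tested.

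ADCYAP1 was close to its PBS level at 24 h, at 4.06, 5.78 and 5.07 TPM, with a log2(fold change) of 0.26 ± 0.22 (adjusted p = 0.417). SST and CARTPT had negative values that were not called, with -1.02 ± 0.41 (adjusted p = 0.0935) and -2.16 ± 0.81 (adjusted p = 0.0789). CARTPT was at 0.304, 0.957 and 0.540 TPM, which is 1, 5 and 3 reads, against 10 to 15 reads in PBS. SST passed the threshold when Acute 24 h replicate 3 was left out (adjusted p = 0.031), and CARTPT when Chronic 24 h replicate 3 was left out (adjusted p = 0.0371). PDYN had 0, 9 and 0 reads at 24 h (adjusted p = 0.0961), CCK had 3, 8 and 6 reads (adjusted p = 0.153), and PENK, at 3.16, 6.04 and 5.80 TPM, had a log2(fold change) of 0.05 ± 0.33 (adjusted p = 0.932). Single libraries weighed on several of these values. PDYN passed the threshold in DESeq2's Wald test (adjusted p = 0.0478) and without Acute 24 h replicate 2 (0.00908), the one with 9 reads. CRH was at 2.08 TPM in the library that stood apart and at 7.22 and 5.40 TPM in the others. TAC1 was at 9.99 TPM in that library and at 18.8 and 19.8 TPM in the others. Without it TAC1 was called at Acute 24 h (0.62 ± 0.19, adjusted p = 0.0334), and at Acute 1 h both TAC1 (0.56 ± 0.18, adjusted p = 0.023) and NPY (-1.25 ± 0.42, adjusted p = 0.0273) were called. That fit called 39.8% of genes at Acute 1 h. Other settings added calls as well. With total gene reads, which include introns, TAC1 (0.77 ± 0.28, adjusted p = 0.033) and CRH (1.02 ± 0.35, adjusted p = 0.0269) were called at Acute 1 h, where 47.2% of all genes were. CCK, CARTPT and PDYN were then called lower at Acute 24 h, with adjusted p of 0.0206, 0.0496 and 0.0161. The share of all genes called with total gene reads at Acute 24 h is not given here, so these calls lack a background. With only the groups compared in the fit, which called 45.5% of genes at Acute 1 h, TAC1, NPY and SST were called there (adjusted p = 0.0115, 0.0129 and 0.0103).

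**Figure D3:**
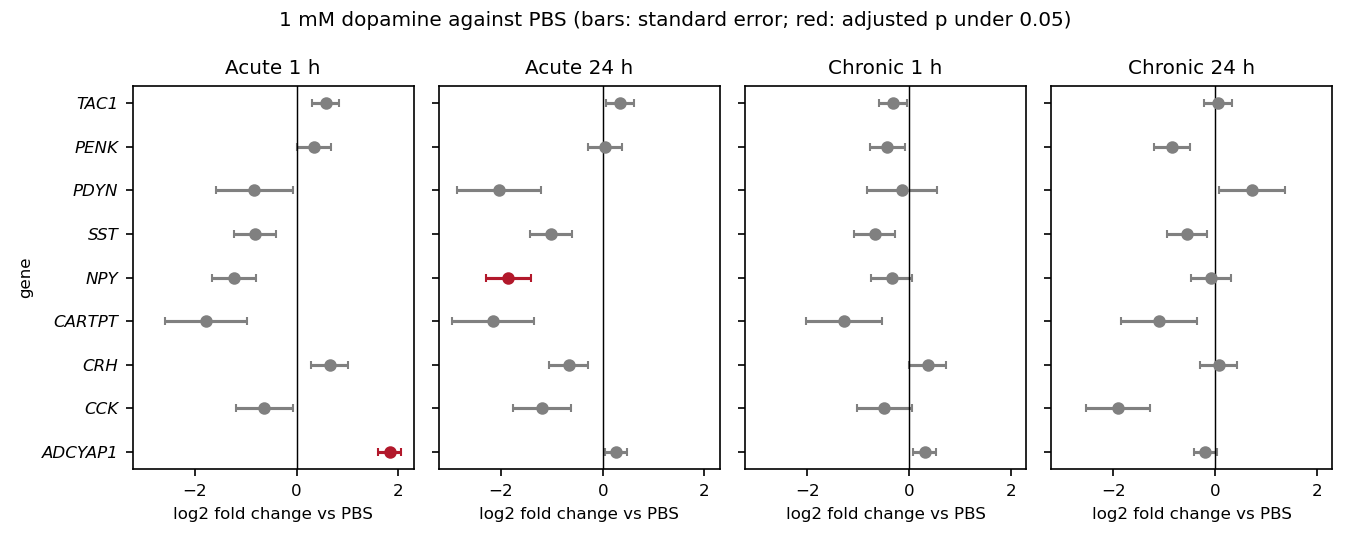
Log2(fold change) of 9 neuropeptide genes (y axis) after 1 mM dopamine against PBS (x axis), 1 panel per condition of 3 libraries against 3. Points are estimates of edgeR's fit on exon reads, bars are standard errors and red marks an adjusted p under 0.05. ADCYAP1 at Acute 1 h (1.83) and NPY at Acute 24 h (-1.86) are the red points, and the Chronic panels have none.

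After chronic 1 mM dosing, no gene of the group was called at either time, with 9 tested. At Chronic 1 h, 2.08% of all genes tested were called, and at Chronic 24 h 0.663%. By unadjusted p, 0 of the 9 were under 0.05 at Chronic 1 h and 2 were at Chronic 24 h, and DESeq2's Wald test called none at either time. Without Acute 24 h replicate 1, no gene of the group was called either, in a fit that called 18.4% and 8.48% of all genes. ADCYAP1 at Chronic 1 h was at 4.31, 4.47 and 6.10 TPM, which overlapped its PBS range, with a log2(fold change) of 0.31 ± 0.22 (adjusted p = 0.543). CCK at Chronic 24 h, at 2, 4 and 3 reads, had a log2(fold change) of -1.90 ± 0.63 (adjusted p = 0.234). PENK at Chronic 24 h was at 2.30, 1.54 and 3.96 TPM with -0.84 ± 0.35 (adjusted p = 0.376).

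Acute and chronic dosing were then compared directly, since a loss of response on repeated dosing is the question of the design. At 1 h, ADCYAP1 was lower in Chronic than in Acute cultures by 1.52 ± 0.22 on the log2 scale, that is -1.52 (adjusted p = 0.000910). The 3 chronic libraries, at 4.31 to 6.10 TPM, were all below the 3 acute libraries, as in 54.5% of genes the ranges did not overlap. In this comparison 11.3% of genes were called, 5.91% were called lower and 2.82% met the DEG rule, as did ADCYAP1. The call held in all 15 fits that left out 1 library and in the 8 other alternatives. The intron share was 20.6% to 20.9% at Chronic 1 h and 12.3% to 13.2% at Acute 1 h. Excitatory markers summed to 1469 to 1777 TPM against 762 to 931 TPM, and mesenchymal markers to 159 to 224 TPM against 326 to 427 TPM. General neuronal markers summed to 5213 to 5427 TPM against 4668 to 5159 TPM. Their part in the difference was not tested. TAC1 at 10.1, 11.2 and 9.07 TPM lay below its acute libraries as well, with -0.88 ± 0.28, but missed the threshold (adjusted p = 0.0561) and passed it without Acute 24 h replicate 1 (0.00222) or Chronic 24 h replicate 2 (0.0493), and in DESeq2's Wald test (0.021). PENK (-0.76 ± 0.34) had an adjusted p of 0.171, and of 0.0401 without Acute 24 h replicate 1.

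At 24 h, NPY and PDYN were higher in Chronic than in Acute cultures. NPY was at 10.7, 18.1 and 6.13 TPM after chronic dosing, above all 3 acute libraries. The log2(fold change) was 1.78 ± 0.44 (adjusted p = 0.0276), and it was not called without Chronic 24 h replicate 1 (0.0744) or replicate 2 (0.139), nor with only the groups compared in the fit (0.281). PDYN was at 25, 15 and 16 reads after chronic dosing and at 0, 9 and 0 reads after acute dosing. Its log2(fold change) was 2.76 ± 0.78 with an adjusted p of 0.0470, close to the threshold. The call of PDYN was lost in 13 of the 15 fits that left out 1 library, with adjusted p of those fits up to 0.156, and with only the groups compared (0.406). Without Acute 24 h replicate 1, the log2(fold change) was 1.87 ± 0.49 for NPY (adjusted p = 0.0178) and 2.31 ± 0.72 for PDYN (adjusted p = 0.041), and PENK was called too (-1.16 ± 0.29, adjusted p = 0.0137), in a fit that called 15.2% of all genes. PDYN overlaps PDYN-AS1, so the source of these reads is uncertain. In this comparison, 7.75% of genes were called, 3.85% were called higher, 2.06% met the DEG rule, as NPY and PDYN did, and 23.4% had ranges that did not overlap. The intron share was 18.9% to 22.4% at Chronic 24 h and 12.5% to 15.9% at Acute 24 h, and excitatory markers summed to 1580 to 2107 TPM against 837 to 1119 TPM. General neuronal markers summed to 5348 to 5886 TPM against 2591 to 4880 TPM, without overlap. Their part in these differences was not tested. Acute cultures were dosed on DIV45 and the last chronic dose was given on DIV50, so age and regimen cannot be told apart.

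With 1 µM dopamine, no gene of the group was called at any time, out of 6 tested (TAC1, PENK, CARTPT, CRH, CCK and ADCYAP1). By unadjusted p, 1 of the 6 was under 0.05 at Acute 24 h and none at the other times, and DESeq2's Wald test called none. The share of all 16541 genes that were called was 5.77% at Acute 1 h, 3.31% at Acute 24 h, 2.58% at Chronic 1 h and 0% at Chronic 24 h. ADCYAP1 at Acute 1 h was at 2.30, 2.49 and 2.23 TPM (14, 24 and 19 reads) against 1.54, 0.687 and 2.29 TPM in PBS (16, 8 and 22 reads). The ranges overlapped, and the log2(fold change) was 0.74 ± 0.49 (adjusted p = 0.438). PENK at Acute 24 h was at 4.33, 3.29 and 2.73 TPM, above its PBS range of 1.10 to 1.42 TPM, a lack of overlap seen in 21.6% of genes, with 1.44 ± 0.60 (adjusted p = 0.235). SST had 0, 2 and 0 reads at Acute 1 h and 5 in each PBS library. It was below the filter on low counts in this experiment, so the difference in these few reads was not tested. PDYN had at most 2 reads in any 1 µM library. Chronic cultures did not differ from acute ones in any of the 6 genes past the threshold, by unadjusted p either, while 1.20% of all genes were called at 1 h and 4.48% at 24 h.

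The difference between the doses was tested itself, as an interaction in a fit of both experiments, and no gene of the group was called at any of the 4 conditions among 9 tested. By unadjusted p, between 0 and 3 of the 9 were under 0.05 per condition. In the same tests 2.01% of 18390 genes were called at Acute 1 h, 0.663% at Acute 24 h, 0.0870% at Chronic 1 h and 0.0109% at Chronic 24 h. For ADCYAP1 at Acute 1 h, the change at 1 mM exceeded that at 1 µM by 1.13 ± 0.46 on the log2 scale (adjusted p = 0.230). A rise at 1 mM and no call at 1 µM thus did not amount to a called difference between doses. With total gene reads, which called 27.9% of all genes here, ADCYAP1 was called in this test (1.87 ± 0.45, adjusted p = 0.00586), as were TAC1 (adjusted p = 0.0374) and CRH (adjusted p = 0.0488). For NPY at Acute 24 h the difference was -2.62 ± 0.94 (adjusted p = 0.206).

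In the time course, CRH was the gene of the group that rose. CRH was at 3.84, 3.24 and 2.90 TPM (18, 15 and 13 reads) in the vehicle. It was at 6.42, 7.19 and 6.41 TPM on Day 2 and at 6.89, 7.12 and 7.03 TPM on Day 3. On Day 4 it was at 5.73, 5.93 and 3.88 TPM, and on Day 5 at 6.38 and 7.29 TPM. Every treated library was above every vehicle library, though on Day 4 only by a small margin. The log2(fold change) was 1.14 ± 0.25 on Day 2 (adjusted p = 0.0217), 1.17 ± 0.25 on Day 3 (adjusted p = 0.0111), 0.66 ± 0.26 on Day 4 (adjusted p = 0.170) and 1.16 ± 0.28 on Day 5 (adjusted p = 0.0507). Of 16768 genes tested, 3.88% were called on Day 2, 7.37% on Day 3, 4.38% on Day 4 and 1.63% on Day 5, and 1.89% and 4.77% were called higher on Day 2 and Day 3. Treated and vehicle ranges did not overlap in 34.4%, 31.4%, 30.4% and 23.7% of genes on Days 2 to 5. All days share the same vehicle libraries, so the 4 comparisons are not independent. Chronic 1 h of the 1 mM experiment also had 5 days of dosing and RNA at 1 h, but a PBS control. There CRH was at 10.1 ± 2.72 TPM against 7.55 ± 1.86 TPM in PBS, and the ranges overlapped. The log2(fold change) was 0.37 ± 0.37 (edgeR's quasi-likelihood test, adjusted p = 0.693), so the rise was not called in that experiment.

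The calls of CRH depended on single libraries. On Day 2 the call was lost without Day 2 replicate 2 (adjusted p = 0.125) and without vehicle replicate 1 (0.0585), 2 (0.0969) or 3 (0.0839). On Day 3 it was lost without Day 3 replicate 2 (0.0524) or vehicle replicate 2 (0.0583). On Day 5 it was gained without Day 4 replicate 3 (0.0486). The log2(fold change) stayed between 1.05 and 1.27 over these fits on all 3 days.

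ADCYAP1, with 52 to 65 reads in the vehicle libraries, was at 6.79, 5.82 and 5.68 TPM on Day 2, above the vehicle at 4.60, 4.59 and 3.86 TPM. It was at 4.12, 3.39 and 3.75 TPM on Day 3, which overlapped the vehicle, and at 5.97 and 7.35 TPM on Day 5. None of these was called, with 0.62 ± 0.19 on Day 2 (adjusted p = 0.0802), -0.11 ± 0.20 on Day 3 (adjusted p = 0.787) and 0.74 ± 0.21 on Day 5 (adjusted p = 0.0922). Without Day 4 replicate 1, Day 2 was called (adjusted p = 0.048). TAC1 had positive values on all days, 0.30 to 0.70 on the log2 scale, and none was called. SST, NPY and PENK were not called on any day either, and CARTPT, PDYN, CCK and PNOC were too low to test, with at most 11 reads in any library.

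A minority of the genes for making and storing peptides rose in the same libraries. Of 19 dense-core vesicle genes tested, 3, 5, 4 and 3 were called on Days 2 to 5, all higher, against 3.88%, 7.37%, 4.38% and 1.63% of all genes. VGF, a granin-family precursor of vesicles, rose from 167 ± 13.5 TPM in the vehicle to 386 ± 13.1 TPM on Day 3 (1.31 ± 0.08, adjusted p = 2.33e-07). PTPRN, a membrane protein of these vesicles, rose by 0.80 ± 0.08 on Day 3 (adjusted p = 2.27e-05). Of 15 processing genes, 2, 3, 2 and 2 were called, all higher, among them the prohormone convertase PCSK1 on every day (0.61 ± 0.10 on Day 3, adjusted p = 0.00164) and PAM. The medians of the 2 lists on Day 3 were 0.20 and 0.22, against 0.00 for all genes. Activity-induced genes were higher as well, 10 of 11 on Day 2, and 6 of 10 mesenchymal markers were higher on Day 3, with summed TPM of 423 to 977 against 248 to 331 in the vehicle. The part of those cells in the values was not tested.

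**Figure D4:**
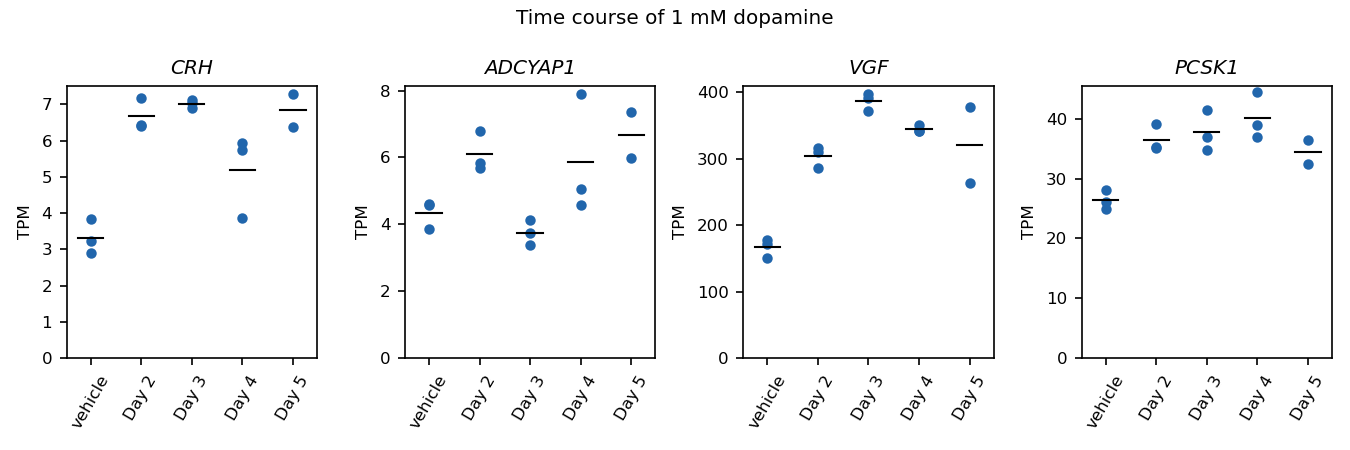
TPM (y axis, from 0) of CRH, ADCYAP1, VGF and PCSK1 in the vehicle and after 2 to 5 days of 1 mM dopamine (x axis). Points are libraries and black lines are means, with 3 libraries per condition and 2 on Day 5. CRH is above its vehicle libraries on all days, while ADCYAP1 on Day 3 (3.39 to 4.12 TPM) overlaps the vehicle.

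Receptor agonists did not change any gene of the group past the threshold. With 7 genes tested, 0 were called for SKF82958, for quinpirole and for the difference between them, and by unadjusted p 0 were under 0.05 in each. DESeq2's Wald test also called 0. The background was 0.0124% of 16132 genes for SKF82958 and 0% for quinpirole, so this fit called almost nothing. Without quinpirole replicate 1 it was 0.624% and 0.184%, and still no gene of the group was called. In that fit, ADCYAP1 had a log2(fold change) of 0.07 ± 0.19 for SKF82958 (adjusted p = 0.944) and -0.16 ± 0.22 for quinpirole (adjusted p = 0.923). It was at 7.39, 9.68 and 8.03 TPM with SKF82958, at 7.53 and 5.43 TPM in the remaining quinpirole libraries and at 8.44, 6.51 and 7.65 TPM in water. TAC1 was at 10.3 and 11.2 TPM with quinpirole and at 12.3 to 15.7 TPM in water, with -0.36 ± 0.21 (adjusted p = 0.794). With that library kept, the values for quinpirole were -0.13 ± 0.30 for ADCYAP1 and -0.47 ± 0.40 for TAC1. SST, at 6.68 to 26.3 TPM with SKF82958 and 11.9 and 14.9 TPM with quinpirole, overlapped its water range of 12.3 to 32.0 TPM in both, with -0.49 ± 0.39 and -0.69 ± 0.47 in the fit without it. The water cultures themselves had high activity-induced genes, with FOS at 204 to 280 TPM against 12.6 to 19.1 TPM in PBS of the 1 mM experiment, and ADCYAP1 was higher in water than in the other control sets. The part of the former in the latter was not tested. For ADCYAP1 the direct difference between the agonists was 0.22 ± 0.22 (adjusted p = 0.998), which does not show that they act alike.

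Other neuropeptide genes in the list were described at the same conditions. Of 25 tested in the 1 mM experiment, 4 were called at Acute 1 h (1 higher, 3 lower), 4 at Acute 24 h (all lower), 1 at Chronic 1 h and 2 at Chronic 24 h (all lower). The share of all genes called was 16.0%, 15.5%, 2.08% and 0.663%, so the acute counts were near the background. The median log2(fold change) was -0.15 at Acute 1 h and -0.46 at Acute 24 h, against 0.01 and 0.02 for all genes. At Acute 1 h, EDN1, the endothelin precursor, rose from 4.02 ± 1.18 to 14.2 ± 4.15 TPM (1.88 ± 0.30, adjusted p = 0.00193), while ADM, the adrenomedullin precursor, fell by 2.38 on the log2 scale (SE 0.46, adjusted p = 0.00474). At Acute 24 h ADM fell from 41.8 ± 27.6 to 2.14 ± 0.53 TPM (-4.39 ± 0.52, adjusted p = 0.000958), and APLN, the apelin precursor, from 11.7 ± 6.65 to 0.714 ± 0.511 TPM (-4.07 ± 0.51, adjusted p = 0.00108). TRH was lower at Chronic 1 h (-1.44 ± 0.33, adjusted p = 0.0387) and at Chronic 24 h (-1.99 ± 0.34, adjusted p = 0.0221). Without Acute 24 h replicate 1, 10, 6, 6 and 8 genes of the list were called at the 4 conditions, in a fit that called 39.8%, 22.3%, 18.4% and 8.48% of all genes.

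At 1 µM, where no gene of the group was called, 3 of 21 other neuropeptide genes were called at Acute 1 h and 3 at Acute 24 h, against 5.77% and 3.31% of all genes. PMCH fell from 26.7 ± 3.05 TPM to 1.56 ± 1.86 TPM at Acute 1 h (-4.01 ± 0.66, adjusted p = 0.00240) and to 4.08 ± 0.687 TPM at Acute 24 h (-2.78 ± 0.58, adjusted p = 0.0191). TRH rose from 34.3 ± 17.7 TPM to 89.5 ± 29.8 TPM at Acute 1 h (1.43 ± 0.24, adjusted p = 0.00308). NPVF, a precursor of RFamide peptides, was at 8.79 ± 3.23 TPM in PBS and listed at 0 TPM in all 3 libraries of Acute 24 h.

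Receptors of the members' peptides were called in a few comparisons. The share of all genes called was 16.0% at 1 mM Acute 1 h, 15.5% at 1 mM Acute 24 h and 5.77% at 1 µM Acute 1 h. ADCYAP1R1, which binds PACAP, was lower at 1 mM Acute 1 h, at 30.6 ± 2.29 TPM against 43.8 ± 2.27 TPM (-0.45 ± 0.12, adjusted p = 0.0212), the condition in which ADCYAP1 rose. It was also lower at Acute 24 h (-0.62 ± 0.12, adjusted p = 0.00824), where ADCYAP1 was not called. CCKBR was lower at Acute 1 h, at 12.3 ± 1.53 TPM against 21.8 ± 1.86 TPM (-0.76 ± 0.15, adjusted p = 0.00458). SSTR2 rose at 1 µM Acute 1 h from 36.6 ± 2.90 to 78.9 ± 4.81 TPM (1.11 ± 0.15, adjusted p = 0.000485). NPY1R was higher at 1 mM Acute 24 h (1.01 ± 0.28, adjusted p = 0.0293), the condition in which NPY was lower, and by 0.53 ± 0.17 (adjusted p = 0.0387) without Acute 24 h replicate 1. That fit called 22.3% of all genes. A link between receptor and peptide changes was not tested.

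Genes with a pattern most like that of each peptide gene were found by Pearson's r of log2(TPM + 1), centered on the experiment mean, over 53 libraries. Libraries of a condition share their treatment, so these values are a description. CNTN2 was most like PENK (r = 0.69), PIK3CD most like NPY (r = 0.82) and COL5A2 most like CRH (r = 0.78). Without quinpirole replicate 1, the same 3 genes were again the most alike, with r of 0.56, 0.79 and 0.71. For TAC1, SST and ADCYAP1 the leading genes changed. CETN2 was most like TAC1 over all libraries (r = 0.88) and PTGER3 without that library (r = 0.57). HOPX and FUT4 led for SST and ADCYAP1 (r = 0.77 and 0.65), and FAM72D and RPE65 without that library (r = 0.65 and 0.73). Among the genes of the group, TAC1 and NPY had an r of 0.19 over all libraries and of -0.48, the lowest of all pairs, without that library. Among the 8 genes compared in this way, the leading gene stayed the same with Spearman's rho only for CRH, and with a pseudocount of 0.1 in place of 1 only for TAC1 and ADCYAP1.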

How the data were processed

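RNA sequencing of 53 libraries of hMSN-like cells was taken from 1 table per library. Per the labels, the authors mapped reads in CLC Genomics Workbench to hg38 with an Ensembl annotation and counted reads per gene. The deposited counts of exon reads are raw, and the deposited TPM values were computed by the authors per library from exon reads and exon length. Authors' fold changes and p-values were not used.

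The 10 genes and all gene lists were chosen with earlier results of these data known. Exon reads were tested with the quasi-likelihood test of edgeR 4.0.16 (R 4.3.3) after filterByExpr (minimum count 10, minimum total count 15) and TMM scaling. Each experiment was fitted with all its groups, without a block for replicate numbers. P-values were adjusted by Benjamini-Hochberg over all genes tested in a comparison, with a threshold of 0.05, and all tests were two-sided. The DEG rule of the study was applied beside it. Dose differences came from a joint fit of both experiments. Errors of log2(fold changes) are standard errors and errors of TPM are SD. Named were all 10 members, up to 3 called genes per list and comparison with the largest changes and a group mean of at least 1 TPM, the receptor of each family with the highest mean TPM, and the genes most alike by Pearson's r. Promoter sequences of 7 of the genes were taken from RefSeq. DESeq2 1.42.0, total gene reads, uniquely mapped exon reads, other filters, a replicate block and leaving out each library were the alternatives, with a likelihood ratio test in DESeq2 across the control sets. In simulated counts of 17468 genes for 1 mM Acute 1 h, 54 of 100 genes changed by 1 on the log2 scale and 100 of 100 changed by 2 were recovered, with 9 false calls. The changed genes were drawn only from genes with higher counts, and all genes had the same simulated spread. Recovery of low genes such as PDYN, CARTPT and CCK was thus not tested. Depths and floors cover counting error only.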

Additional observations from a re-analysis of the deposited data

Results flagged for a closer look

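Chronic and acute dosing with 1 mM dopamine differed past the threshold for 3 genes in a direct test of the difference. ADCYAP1 at 1 h after the last dose was lower in chronic than in acute cultures (log2(fold change) -1.52), with all 3 chronic libraries below all 3 acute ones. NPY at 24 h was higher in chronic cultures (1.78), with all 3 chronic libraries above all 3 acute ones. PDYN at 24 h was higher in chronic cultures (2.76), on 15 to 25 reads per chronic library and 0 to 9 per acute library, also without overlap. The background was 11.3% of all genes called at 1 h and 7.75% at 24 h. Ranges did not overlap in 54.5% of all genes at 1 h and in 23.4% at 24 h. The call of ADCYAP1 held in all 15 fits that left out 1 library, that of NPY in 13 and that of PDYN in 2. NPY and PDYN were also not called with only the groups compared. Acute and chronic cultures differed in age, and age and regimen cannot be told apart.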

How the results depend on the processing

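The numbers of calls among the 10 genes were low and moved with the setting. For the 4 comparisons of 1 mM dopamine with PBS, 2 calls became 7 with total gene reads, 4 with DESeq2's Wald test and 4 with only the groups compared, and ranged from 1 to 5 when single libraries were left out. For chronic against acute dosing at either dose, 3 calls became 6 with total gene reads and 1 with a replicate block, which kept ADCYAP1 at 1 h and lost NPY and PDYN at 24 h (adjusted p = 0.0519 and 0.0794), and ranged from 1 to 6 with single libraries left out. In the time course, 2 calls ranged from 0 to 3 with single libraries left out. For differences between doses, 0 calls became 3 with total gene reads, and ranged from 0 to 1 with single libraries left out. The 5 calls across control sets became 3 when genes needed at least 10 reads in every library, and ranged from 3 to 7 with single libraries left out. With that filter SST, NPY and ADCYAP1 were not tested, and CRH was called in addition (F test, adjusted p = 0.0491). Calls over all neuropeptide lists were 82, against 105 with total gene reads, 109 with DESeq2, and, in fits chosen after seeing the data, 124 without Acute 24 h replicate 1 at 1 mM and 83 without quinpirole replicate 1. The share of all genes called moved too. With total gene reads it went from 2.01% to 27.9% for the dose difference at Acute 1 h, and from 7.37% to 4.95% on Day 3. Without Acute 24 h replicate 1 it went from 16.0% to 39.8% at 1 mM Acute 1 h. The counts of calls alone are thus no result about the peptide genes. For 1 µM dopamine against PBS and for the agonists, 0 calls were made in all alternatives run. No called value changed direction. The cause of these changes was not tested. Same-numbered replicates did not deviate together, with a mean correlation of their deviations between -0.0248 and 0.0229 over the 4 experiments, so the numbers were not taken to pair libraries. Depth limits the low genes, as PNOC never exceeded 6 reads, and PDYN, CCK and CARTPT often lay near the floor of 3 reads.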

Other observations

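Peptide genes outside the group also differed between chronic and acute dosing. Of 25 other neuropeptide genes tested at 1 mM, 6 were called at 1 h (1 higher and 5 lower in chronic cultures) and 5 at 24 h (4 higher and 1 lower), against 11.3% and 7.75% of all genes. Without Acute 24 h replicate 1, these counts were 11 and 8, in a fit that called 34.0% and 15.2% of all genes. At 1 µM, 0 of 21 were called at 1 h by edgeR's test, and 4 at 24 h (3 higher and 1 lower), against 1.20% and 4.48% of all genes. In the time course, NTS was higher on Day 2 (0.89 on the log2 scale), as was NPPC, the precursor of C-type natriuretic peptide (1.83), and EDN1 on Day 3 (3.00). Of 20 other neuropeptide genes tested, 2 were called on Day 2, 1 on Day 3 and 1 on Day 4, all higher, and 0 on Day 5, against 3.88%, 7.37%, 4.38% and 1.63% of all genes.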
